A study of Nothobranchius furzeri with 12 samples.

Results

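Tail fins of the African turquoise killifish (Nothobranchius furzeri), an annual fish with a short life, were examined for genes whose difference between coloured tails and female tails was not the same in 2 strains. The data were 12 RNA sequencing libraries in 4 groups of 3, described in the submission as biological replicates: MZCS002 fish with red tails, GRZ-BELL fish with yellow tails, and females of either strain. Coloured fin tissue was sampled from the tail, and the corresponding region in females. For each gene the red tail was set against the MZCS002 females, the yellow tail against the GRZ-BELL females, and the second difference was subtracted from the first on the scale log2(value + 1). This difference of differences is called the interaction below: it is positive where the tail-female difference was higher in MZCS002 and negative where it was lower. Interactions and other differences are given in log2 units, with ± for the standard error, and values per library as normalized reads. All 12 libraries entered, and 15170 of the 20788 transcript entries had a mean of at least 10 normalized reads over them and were tested. The labels give neither the sex of the fish with coloured tails nor any age, treatment or further genotype. Red was seen in 1 strain only and yellow in the other only, so that colour, strain and a number in the labels that runs with strain, and whose meaning the labels leave unsaid, cannot be told apart. Within a strain, colour and sex cannot be told apart either.

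Fish colour comes from pigment cells of neural crest origin: melanophores with melanin, xanthophores with pteridines and carotenoids, and iridophores with guanine crystals. In zebrafish, Pax3 and Pax7 transcription factors act in the precursors of xanthophores and other pigment cells, and the receptor Csf1r is needed by xanthophores. A difference between coloured and female tails that 2 strains share cancels in the interaction, and what is left differs in size or direction between them.

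The libraries held 5495553 to 17053983 recovered reads. The shallowest, MZCS002 female 2, stood apart. It had reads for 16400 entries, where each other library had them for 17644 to 18667, and it correlated with the rest of its group at 0.847 on average (0.895 to 0.957 for other libraries). The number of calls and part of the other results are therefore given with and without it, and the rest with all libraries only. Markers of fin skin and skeleton were high in every library, with summed normalized values of at least 595899 for 15 epidermal genes and at least 66279 for 18 fin ray and bone genes. Summed values of 11 gonad genes stayed between 41.6 and 107. In such whole-tissue samples, fewer cells of a type and less RNA per cell cannot be told apart.

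Of the 15170 entries, limma called 27 for the interaction (0.178%), with a threshold of 0.05 on the p-value adjusted after Benjamini and Hochberg, 13 higher in MZCS002 (0.0857%) and 14 lower (0.0923%). A gene symbol was known for 20 of them. An unadjusted p under 0.05 was reached by 2193 entries (14.5%). The test of edgeR on recovered reads called 33 (0.218%), 24 of them among the 27, and DESeq2 called 625 (4.12%), with all 27 among them. Without MZCS002 female 2, limma called 134 (0.883%), again with all 27 among them. Values rescaled to equal library totals moved the median entry from 0.01 to 0.32 and gave 28 higher and 7 lower. A smaller pseudocount of 0.1 left 6 calls: slc30a8, slc39a6, il34, foxq1a, acat2 and map7a.

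Red tails differed from MZCS002 females in 687 entries (4.53%), 411 higher (2.71%) and 276 lower (1.82%), and yellow tails from GRZ-BELL females in 279 (1.84%), 226 higher (1.49%) and 53 lower (0.349%). Red and yellow tails differed in 1127 entries (7.43%) and the female groups in 264 (1.74%). Which group made each interaction was read from the libraries themselves. The tail-female difference was called in MZCS002 alone for 12 of the 27 entries and in GRZ-BELL alone for 12, against 3.74% and 1.05% of all entries. It was called in both strains in the same direction for 2, vtna and mreg (0.784% of all entries), and in both in opposite directions for 1, acat2, the only such entry of 15170 (0.00659%). For 25 of the 27 the red and yellow tails differed from each other by more than the females of the strains did, which held for 55.9% of all entries. A group whose 3 libraries all lay above or all below the other 9 was found for 25 of the 27, and for 18.8% of all entries. Red tails lay above in 11 (4.83% of all entries), yellow tails above in 9 (2.43%), yellow tails below in 4 (1.77%), GRZ-BELL females below in 3 (1.62%), red tails below in 2 (4.4%), and MZCS002 females below (1.26%) and GRZ-BELL females above (2.25%) in 1 each. MZCS002 females lay above the rest in 0 of the 27, and an entry could count for more than 1 group. These shares come from the same values as the calls, so they describe the calls and were not tested. The red-yellow and the female-female differences use the same libraries as the interaction and are given beside it as its components.

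**Figure D1:**
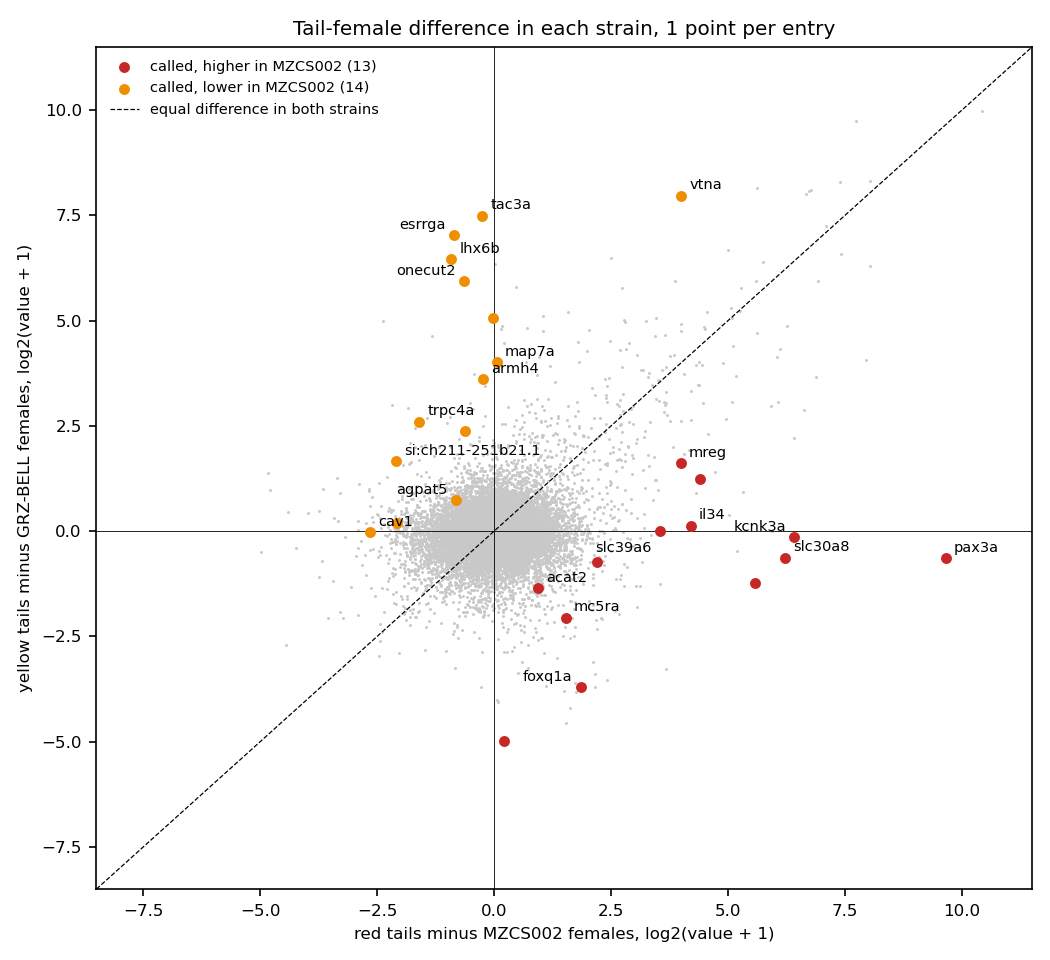
Tail-female difference in MZCS002 (horizontal) against GRZ-BELL (vertical), log2(value + 1), with 1 point for each of the 15170 entries and the dashed line marking equal differences. The 13 calls higher in MZCS002 (red) lie below the line, from -4.98 to 1.62 on the vertical axis, and the 14 lower (orange) lie above it. Among the calls pax3a is farthest to the right and vtna highest.

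A first set of genes was high in red tails and low in the 3 other groups. The transcription factor gene pax3a was at 1028, 956 and 889.7 in red tails, 0, 0 and 0.680 in MZCS002 females, 0, 0 and 2.75 in yellow tails and 7.05, 0 and 0.782 in GRZ-BELL females. Red tails held 3564 reads of it, MZCS002 females 1 and yellow tails 2, and all 3 red libraries lay far above the other 9. The ratio of means was 4228 for red tails over MZCS002 females (95% counting interval 497 to 109478) and 1045 over yellow tails (380 to 11339). Its interaction was 10.30 ± 1.14 with a limma adjusted p of 0.0048, and 0.077 at a pseudocount of 0.1. Summed values of the pigment lists are given beside it as description. Those of 25 melanin genes ran from 16339 to 22598 in yellow tails and from 21247 to 35829 in red ones. They were 4331 to 6433 in MZCS002 and 5533 to 6676 in GRZ-BELL females. For 13 genes of the pteridine list, which also holds csf1ra and pax7a, the sums were 45510 to 105831 in red, 20515 to 46047 in yellow, and 10884 to 14294 in all female tails. In red tails most of the sum came from gch2, described below. The median log2 deviation of the members from their own means over all libraries was 0.09 to 0.44 in red and 0.11 to 0.71 in yellow tails. It was -0.82 to 0.09 in MZCS002 and -0.79 to -0.09 in GRZ-BELL females. The other 2 pigment lists had another order of groups. Sums of 14 carotenoid genes were 10087 to 14339 in yellow, 6285 to 8024 in red and 1848 to 4089 in all female tails. For 26 guanine genes the sums were 51364 to 54921 in red and 45993 to 52733 in yellow tails. They were 56798 to 77407 in MZCS002 females and 39547 to 61091 in GRZ-BELL females. The part of pigment cell number in the result for pax3a and in the genes below was not tested.

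Zinc transporters gave a further pair. The gene slc30a8 encodes a transporter that loads zinc into vesicles and is known in mammals from insulin granules. It was at 958, 1923 and 675 in red tails, 19.8, 6.29 and 19 in MZCS002 females, 43.2, 31.3 and 11 in yellow tails and 61.1, 43.3 and 21.9 in GRZ-BELL females. Red tails exceeded every other library by a wide margin, 78.9-fold over MZCS002 females and 41.6-fold over yellow tails by the means. The interaction was 6.84 ± 0.85, limma adjusted p = 0.0084. For slc39a6, which encodes a zinc importer of the cell membrane, the values were 1384, 2471 and 1755 in red tails, 119, 179 and 171 in MZCS002 females, 216, 148 and 133 in yellow tails and 239.6, 137 and 131 in GRZ-BELL females. The 9 libraries outside the red group overlapped closely, and the difference of yellow tails from GRZ-BELL females had a 95% interval of -0.70 to 0.69. The interaction, 3.56 ± 0.45 with a limma adjusted p of 0.0091, came from the red tails, 12-fold above MZCS002 females. Both calls were kept whichever library was left out.

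Of the 14 tested genes of zinc transport and sensing, limma, edgeR and DESeq2 each called these 2. The tools called 0.178%, 0.218% and 4.12% of all entries. An unadjusted p under 0.05 in limma was reached by 5 of the 14, against 14.5% of all entries. Both called genes were put on the list with their call known, so that nothing is read from this count. The other 12 ran from -4.01 to 1.09 and the median over the list was 0.17 (0.01 over all entries). Without MZCS002 female 2 the list's median was 0.07. The zinc exporter gene slc30a1a was at 0.861, 0.803 and 34.7 in red tails, 24.3, 44 and 41.5 in MZCS002 females, 120.4, 79.9 and 79.7 in yellow tails and 22.3, 62.5 and 50.8 in GRZ-BELL females. It was under 1 in 2 of the 3 red libraries, and its interaction of -4.01 ± 1.29 was not called (limma adjusted p = 0.20). The zinc importer gene slc39a10 was at -0.77 ± 0.32 (0.30).

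The cytokine gene il34 encodes a ligand of the Csf1 receptor. Its values were 823, 921 and 734 in red tails, 44.9, 25.1 and 73.4 in MZCS002 females, 74.3, 47.8 and 74.2 in yellow tails and 97.5, 59.1 and 34.4 in GRZ-BELL females. Red tails lay above all others, 17.3-fold over MZCS002 females and 12.6-fold over yellow tails, while the 9 other libraries overlapped. The interaction was 4.07 ± 0.60, limma adjusted p = 0.022. It was kept only when MZCS002 female 1, 2 or 3, GRZ-BELL female 3 or red 3 was the library left out, with a highest adjusted p of 0.090. The receptor gene csf1ra was high in both coloured groups, at 3193, 2969 and 2373 in red tails, 186, 198 and 403 in MZCS002 females, 1856, 3435 and 2529 in yellow tails and 241, 413 and 259.5 in GRZ-BELL females. Its interaction of 0.43 ± 0.48 had a 95% interval of -0.61 to 1.46, so that the ligand and receptor genes differed in which groups were high. No other of the 6 tested genes of this pathway was called by limma, edgeR or DESeq2. These tools called 0.178%, 0.218% and 4.12% of all entries. An unadjusted p under 0.05 in limma was reached by 2 of the 6, against 14.5% of all entries. The lowest, the macrophage transcription factor gene spi1b, was at -1.30 ± 0.42 (limma adjusted p = 0.19), with its paralogue spi1a at -1.06 ± 0.51 (0.37).

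The gene kcnk3a, for a leak potassium channel, was at 450.3, 642 and 404 in red tails, 12.6, 0 and 12.9 in MZCS002 females, 26.1, 11.3 and 13.7 in yellow tails and 21.1, 16.7 and 15.6 in GRZ-BELL females. Red tails were 58.7-fold above MZCS002 females and 29.3-fold above yellow tails, with no overlap. The 0 stands in the shallow MZCS002 female 2, where 3 reads equal 9.43 units. The interaction was 6.55 ± 1.14 (limma adjusted p = 0.047, and 0.0019 without that library), and the call was kept only when 1 of the MZCS002 females was left out (highest adjusted p 0.15).

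**Figure D2:**
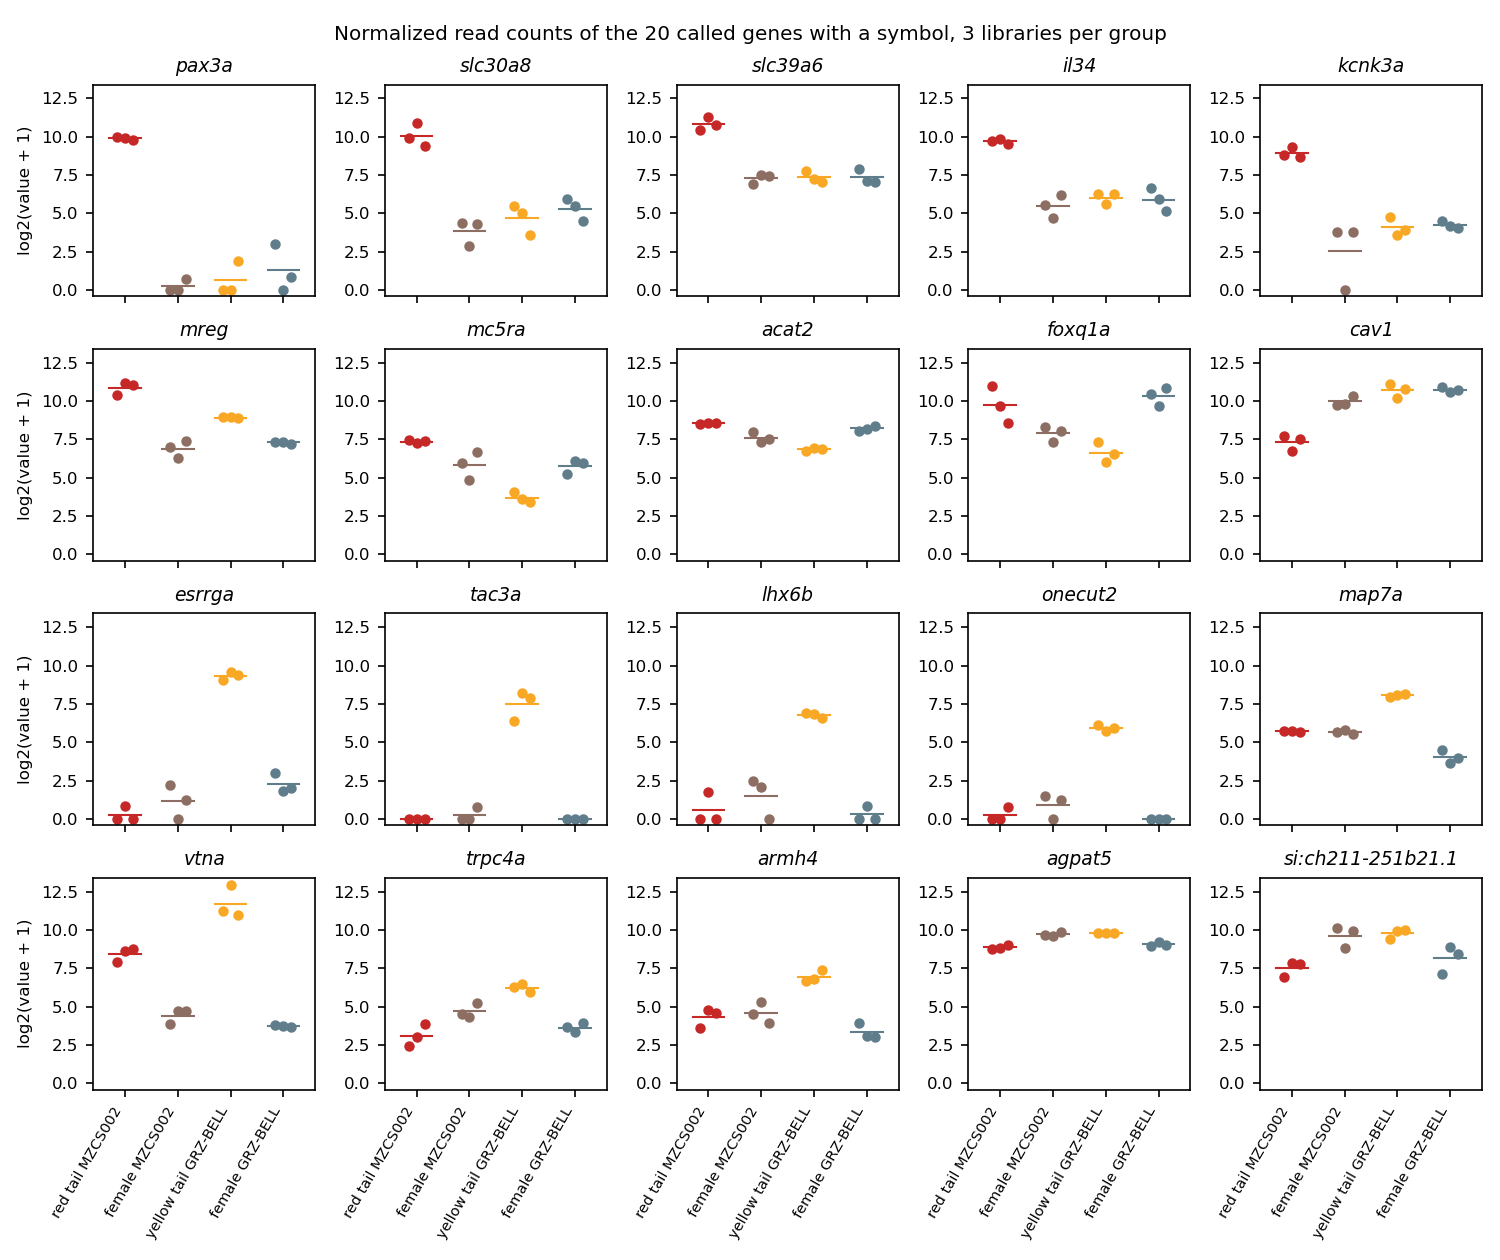
Each of the 20 called genes with a symbol in the 12 libraries: vertical axis log2(value + 1), points are libraries, short lines are group means. Red tails stand alone at the top for pax3a, slc30a8, slc39a6, il34 and kcnk3a, yellow tails for esrrga, tac3a, lhx6b and onecut2, and the panel of acat2 shows opposite tail-female differences in the strains.

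A second set was high in yellow tails and at or near 0 elsewhere. The orphan nuclear receptor gene esrrga, whose mammalian counterpart controls genes of mitochondrial energy use, was at 0, 0.803 and 0 in red tails, 3.59, 0 and 1.36 in MZCS002 females, 533, 750.2 and 654 in yellow tails and 7.05, 2.50 and 3.13 in GRZ-BELL females. The other 9 libraries were at 7.05 or below, so that yellow tails stood alone. Yellow tails exceeded red tails by a ratio of 2412 (95% counting interval 435 to 95986), with 1 read in all red libraries, and GRZ-BELL females 153-fold. The interaction was -7.90 ± 0.91 (limma adjusted p = 0.0054), kept whichever library was left out. It was lost with a filter at a mean of at least 50, and at a pseudocount of 0.1 (0.10). The related receptor genes esrra and esrrd were not called, at 0.33 and 0.25.

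The neuropeptide precursor gene tac3a, which encodes neurokinin B, known from the brain's control of reproduction, was at 0, 0 and 0 in red tails, 0, 0 and 0.680 in MZCS002 females, 83.3, 293 and 236 in yellow tails and 0, 0 and 0 in GRZ-BELL females. Only 1 read fell outside the yellow tails, which were at least 73.3-fold above GRZ-BELL females and at least 84.5-fold above red tails. The interaction was -7.75 ± 1.06 (limma adjusted p = 0.012). It was lost without yellow 2 or yellow 3 (highest 0.096), and edgeR did not call it (adjusted p = 0.15). Its receptor genes tacr3a and tacr3l were at -0.49 and -1.11 and were not called.

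The homeobox transcription factor genes lhx6b and onecut2 had the same shape. The values of lhx6b were 0, 2.41 and 0 in red tails, 4.49, 3.14 and 0 in MZCS002 females, 116, 113 and 93.5 in yellow tails and 0, 0.833 and 0 in GRZ-BELL females. Those of onecut2 were 0, 0 and 0.754 in red tails, 1.80, 0 and 1.36 in MZCS002 females, 69.3, 52.1 and 60.5 in yellow tails and 0, 0 and 0 in GRZ-BELL females. Yellow tails held 314 and 173 reads of them, and GRZ-BELL females 1 and 0. The ratio of yellow tails to GRZ-BELL females was 388 for lhx6b (95% counting interval 64.8 to 14412) and at least 21.7 for onecut2. The interactions were -7.38 ± 1.17 and -6.57 ± 1.07 (limma adjusted p 0.034 and 0.037). The call of onecut2 was kept only without MZCS002 female 1 or 2 or red 3 (highest 0.17). That of lhx6b was kept without any 1 of the MZCS002 females, red 2 or red 3 (highest 0.13), and edgeR did not make it (adjusted p = 0.061).

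Other genes highest in yellow tails were expressed in every group. The microtubule-associated protein gene map7a was at 53.4, 51.4 and 49.8 in red tails, 49.4, 53.4 and 46.2 in MZCS002 females, 244, 275 and 282 in yellow tails and 21.1, 11.7 and 14.9 in GRZ-BELL females. Red tails and MZCS002 females overlapped, at a difference of 0.05 (95% interval -0.58 to 0.68), while yellow tails were highest and GRZ-BELL females lowest of all, a 16.8-fold gap. Its interaction of -3.97 ± 0.41 had the smallest adjusted p together with pax3a (limma, 0.0048) and was kept under every alternative that was run. The channel gene trpc4a was at 4.30, 7.23 and 13.6 in red tails, 22.5, 18.9 and 36.7 in MZCS002 females, 77.3, 90.3 and 60.5 in yellow tails and 11.7, 9.16 and 14.1 in GRZ-BELL females. Yellow tails were highest, and MZCS002 females lay between them and the overlapping red tails and GRZ-BELL females. The difference was -1.60 in MZCS002 (95% interval -2.61 to -0.59, limma adjusted p = 0.071) and 2.60 in GRZ-BELL (0.0096), of opposite signs. The interaction of trpc4a was -4.20 ± 0.66 (limma adjusted p = 0.034, highest 0.12, kept only without MZCS002 female 1 or 2 or red 3). For armh4, values in yellow tails were 102, 110 and 165, against 7.04 to 37.7 in the other 9 libraries, and the interaction was -3.85 ± 0.68 (limma adjusted p = 0.049, kept only without MZCS002 female 2 or red 3, highest 0.15).

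The vitronectin gene vtna, for an adhesive protein of matrix and plasma, rose in the tails of both strains, but by different amounts. It was at 238, 390.3 and 425 in red tails, 13.5, 25.1 and 25.1 in MZCS002 females, 2436, 7817 and 1976 in yellow tails and 12.9, 12.5 and 11.7 in GRZ-BELL females. Both coloured groups lay above both female groups, by 16.5-fold in MZCS002 and 329-fold in GRZ-BELL, and the yellow tails lay above the red. The interaction was -3.98 ± 0.65 (limma adjusted p = 0.037). It was kept only without yellow 2, yellow 3, red 3 or MZCS002 female 1 or 2 (highest 0.11), and was 0.062 under equal totals. Blood markers were also highest in yellow tails: 11 erythroid genes summed to 1705 to 2541 there, 696 to 1029 in red tails, 518 to 601 in MZCS002 females and 538 to 1047 in females of GRZ-BELL. Their part in the genes highest in yellow tails was not tested.

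The counterpart of vtna was mreg, for melanoregulin, which acts in melanosome transport in mammals. It was at 1352, 2291 and 2142 in red tails, 125, 78.6 and 164 in MZCS002 females, 489.8, 489 and 482 in yellow tails and 161, 163 and 149 in GRZ-BELL females. Tails lay above females in both strains, 15.7-fold in MZCS002 and 3.09-fold in GRZ-BELL, with no overlap. The interaction was 2.37 ± 0.40 (limma adjusted p = 0.045), lost without any yellow library, any GRZ-BELL female, red 2 or red 3 (highest 0.15). With all libraries the call was also lost without the intensity trend, under equal totals and with a replicate block. The same held for a filter at a mean of at least 50 and a pseudocount of 0.1.

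In a further set, as for trpc4a, the tail-female differences had opposite signs in the strains, and for acat2 alone limma called both of them. The gene acat2, for the acetyl-CoA acetyltransferase that opens the sterol synthesis pathway, was at 362, 381 and 383 in red tails, 251, 160.3 and 183 in MZCS002 females, 107, 123 and 118 in yellow tails and 267, 294 and 337 in GRZ-BELL females. Red tails were above MZCS002 females by 0.95 (limma adjusted p = 0.039), and yellow tails were below GRZ-BELL females, by -1.35 (0.0072). Within each strain tails and females did not overlap. The interaction was 2.30 ± 0.33 (limma adjusted p = 0.016), lost without yellow 1 or 3, GRZ-BELL female 2 or 3 or red 2 (highest 0.077).

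The melanocortin receptor gene mc5ra was at 176, 150.2 and 166 in red tails, 61.1, 28.3 and 101 in MZCS002 females, 16.1, 11.3 and 9.62 in yellow tails and 36.4, 66.6 and 61.8 in GRZ-BELL females. Red tails were the highest group and yellow tails the lowest, while females of the strains overlapped, at a difference of 0.08 (95% interval -0.88 to 1.03). Yellow tails were called below their females (-2.05, limma adjusted p = 0.031), and red tails were not called apart from theirs (1.53, 0.068). The interaction was 3.58 ± 0.62 (limma adjusted p = 0.047), kept only without MZCS002 female 2 or 3 (highest 0.15). With all libraries the call of mc5ra was also lost under equal totals, with a replicate block and with no filter. The same held for a filter at a mean of at least 50 and a pseudocount of 0.1. For agpat5, which encodes an acyltransferase of phospholipid synthesis, values were 441, 463 and 523 in red tails, 827, 767 and 919 in MZCS002 females, 888, 892 and 897 in yellow tails and 486, 599 and 525 in GRZ-BELL females. Red tails and GRZ-BELL females shared the lower range, yellow tails and MZCS002 females the higher, and no group stood alone. The difference in MZCS002 was called (-0.81, limma adjusted p = 0.035) and that in GRZ-BELL was not (0.74, 0.089). Its interaction of -1.55 ± 0.27 was the smallest in size among the 20 genes with a symbol (limma adjusted p = 0.048, kept only without MZCS002 female 2 or red 3, highest 0.16). The uncharacterised gene si:ch211-251b21.1 had the same order of groups, with some overlap and with means of 189 ± 60.6 in red tails, 839 ± 344 in MZCS002 females, 908 ± 199.8 in yellow tails and 318 ± 167 in GRZ-BELL females (SD, n = 3) (interaction -3.76 ± 0.65, limma adjusted p = 0.047, kept only without MZCS002 female 2 or red 3, highest 0.13). Its difference in MZCS002 was called (-2.10, limma adjusted p = 0.025) and that in GRZ-BELL was not (1.66, 0.11).

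The forkhead transcription factor gene foxq1a was at 2003, 833 and 388 in red tails, 323, 160.3 and 261 in MZCS002 females, 158, 64.3 and 93.5 in yellow tails and 1401, 834 and 1837 in GRZ-BELL females. Yellow tails were lowest, below every other library, and GRZ-BELL females exceeded them 12.9-fold. Red tails and MZCS002 females did not overlap but were not called apart (1.86, limma adjusted p = 0.068). The interaction was 5.56 ± 0.75 (limma adjusted p = 0.012), and 0.051 without red 2. The immediate early gene fosb, of a class that cells switch on quickly when stimulated and looked up after its values were seen, was at 6326, 263 and 191 in red tails, 527, 62.9 and 395 in MZCS002 females, 257, 157 and 135 in yellow tails and 2387, 3128 and 9809 in GRZ-BELL females. It was highest in red 1 and the 3 GRZ-BELL females. Its interaction of 6.09 ± 1.60 was not called (limma adjusted p = 0.14), and its part in the result for foxq1a was not tested.

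The caveolin gene cav1, which encodes the coat protein of caveolae, was low in red tails alone. Its values were 210.1, 107 and 183 in red tails, 874, 915 and 1317 in MZCS002 females, 2240.2, 1184 and 1798 in yellow tails and 1906, 1540.1 and 1695 in GRZ-BELL females. All 3 red libraries lay below the other 9, 6.21-fold below MZCS002 females, while yellow tails and their females differed by -0.02 (95% interval -0.69 to 0.64). The interaction was -2.64 ± 0.43 (limma adjusted p = 0.037), kept only without yellow 2, red 3 or MZCS002 female 1 or 2 (highest 0.12). The 13 tested genes of the vessel list held 0 calls in limma, edgeR and DESeq2, with a median of 0.04 (-0.06 under quantile normalization). In limma 2 of them had an unadjusted p under 0.05 (14.5% of all entries).

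A further 7 called entries carried no symbol, 4 of which are given. For XM_015975394 the odd group was a female one: it was at 133, 100.4 and 140.2 in red tails, 99.7, 132 and 148 in MZCS002 females, 88.3, 79.9 and 79.7 in yellow tails and 3.52, 2.50 and 0 in GRZ-BELL females. GRZ-BELL females were near 0, red tails and MZCS002 females overlapped, and yellow tails lay just below them. The interaction was -5.07 ± 0.69 (limma adjusted p = 0.012, lost without yellow 1 or red 2, highest 0.061). XM_015943237 was high in red tails alone, at 99.0, 82.7 and 41.5 against 7.05 at most elsewhere, with an interaction of 6.83 ± 1.15 (limma adjusted p = 0.041, highest 0.15 with a library left out). XM_015941869 was also highest in red tails (2.95 ± 0.47, 0.034) and XM_015974709 lowest there (-2.25 ± 0.36, 0.037). Both calls were kept in 4 of the 12 fits without 1 library, where limma's adjusted p reached 0.12.

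Most pigment genes were not called for the interaction in limma, edgeR or DESeq2. The melanin, pteridine, guanine and carotenoid lists held 70 tested members, of which limma called mreg and mc5ra (2.86%, against 0.178% of all entries). For the same 70 genes there were 5 calls without MZCS002 female 2 (0.883% of all entries), 3 by edgeR (0.218%) and 11 by DESeq2 (4.12%). Both were put on the melanin list with earlier results known, so that nothing is read from this share. An unadjusted p under 0.05 in limma was reached by 21 (14.5% of all entries). Medians of the interaction were -0.21 for 24 melanin genes, -0.09 for 13 pteridine genes, 0.24 for 22 guanine genes and 0.15 for 11 carotenoid genes, against 0.01 over all entries. Under equal totals the melanin and pteridine medians turned to 0.10 and 0.23, against 0.32 over all entries, and under quantile normalization the carotenoid median to -0.17. Without MZCS002 female 2 the 4 medians were -0.17, 0.04, 0.08 and -0.13. The medians of the tail-female difference itself were 1.59 and 1.40 for melanin genes in MZCS002 and GRZ-BELL, 0.53 and 0.51 for pteridine genes, 0.81 and 0.42 for guanine genes and 0.39 and 0.63 for carotenoid genes.

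In both strains limma called 18 of the 70 in the same direction (0.784% of all entries were so called). For 13 of these the 95% interval of the interaction included 0. An interval that leaves out 0 goes with an unadjusted p under 0.05 in limma, which 14.5% of all entries reached. The 18 were picked by values that also enter the interaction, so the count does not show that the strains share these differences. The tyrosinase gene tyr, whose enzyme starts melanin synthesis, was at 2622, 3385 and 1647 in red tails, 62, 59.7 and 99.2 in MZCS002 females, 1301, 2627 and 1128 in yellow tails and 63.4, 20.0 and 46.1 in GRZ-BELL females. Both tails lay well above both female groups, and the interaction of -0.22 ± 0.63 had an interval of -1.58 to 1.14 and turned to 0.09 under equal totals. The gene fhl2a, of the guanine list, was at 452, 1183 and 1382 in red tails, 1.80, 3.14 and 5.44 in MZCS002 females, 2673, 5964 and 1964 in yellow tails and 14.1, 0.833 and 0.782 in GRZ-BELL females. It was near 0 in every female library and high in all tails, with an interval of -4.31 to 0.31. Others with an interval across 0 were the lipid droplet gene plin6 (-0.23, and 0.07 under equal totals), the apolipoprotein D gene apoda.1 (0.45, and -0.17 under quantile normalization), rab38b (-0.30), tfec (-0.85), pnp4a (-0.64) and lpla (-0.34), the last lower in both tails. For the melanosome protein gene mlana the interaction was 0.73 ± 0.44 (-0.22 to 1.68), for trpm1b, a melanophore channel gene, -0.43 ± 0.40 (-1.29 to 0.42), and for tyrp1b -0.55 ± 0.52 (-1.68 to 0.59). The GTP cyclohydrolase gene gch2, of pteridine synthesis, was at 42967, 88797 and 32889 in red tails, 182, 97.4 and 388 in MZCS002 females, 7480.4, 26834 and 4351 in yellow tails and 1056, 30.8 and 51.6 in GRZ-BELL females. It spread so widely, above all among GRZ-BELL females, that its interaction of 1.73 ± 1.52 had an interval of -1.57 to 5.02.

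The remaining 5 of the 18 had intervals that left out 0, against 14.5% of all entries. They were mreg, the melanosome transport gene rab27b (1.18 ± 0.35, limma adjusted p = 0.17), tspan10 (1.42 ± 0.54, 0.25), pnp5a, a purine nucleoside phosphorylase gene (1.89 ± 0.82, 0.32), and pax7a, a paralogue of pax3a (-1.07 ± 0.46, 0.31). Of these mreg alone passed the adjustment. The values of pax7a were 585, 539.7 and 493 in red tails, 81.8, 132 and 157 in MZCS002 females, 731, 1512 and 676 in yellow tails and 92.8, 106 and 89.1 in GRZ-BELL females. Unlike pax3a, it was above the females in both coloured groups, 4.36-fold in MZCS002 and 10.1-fold in GRZ-BELL, and all yellow libraries lay above the red ones. Of the 14 tested neural crest and progenitor genes, pax3a was the only one called by limma, with or without MZCS002 female 2, and by edgeR. These fits called 0.178%, 0.883% and 0.218% of all entries. An unadjusted p under 0.05 in limma was reached by 5 of the 14, against 14.5% of all entries. DESeq2 called 4 of the 14, against 4.12% of all entries. The next in limma were msx1a at 1.43 ± 0.37 and tfap2a at -1.98 ± 0.63 (limma adjusted p 0.14 and 0.19), and the list's median was 0.03 (-0.0026 under quantile normalization).

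**Figure D3:**
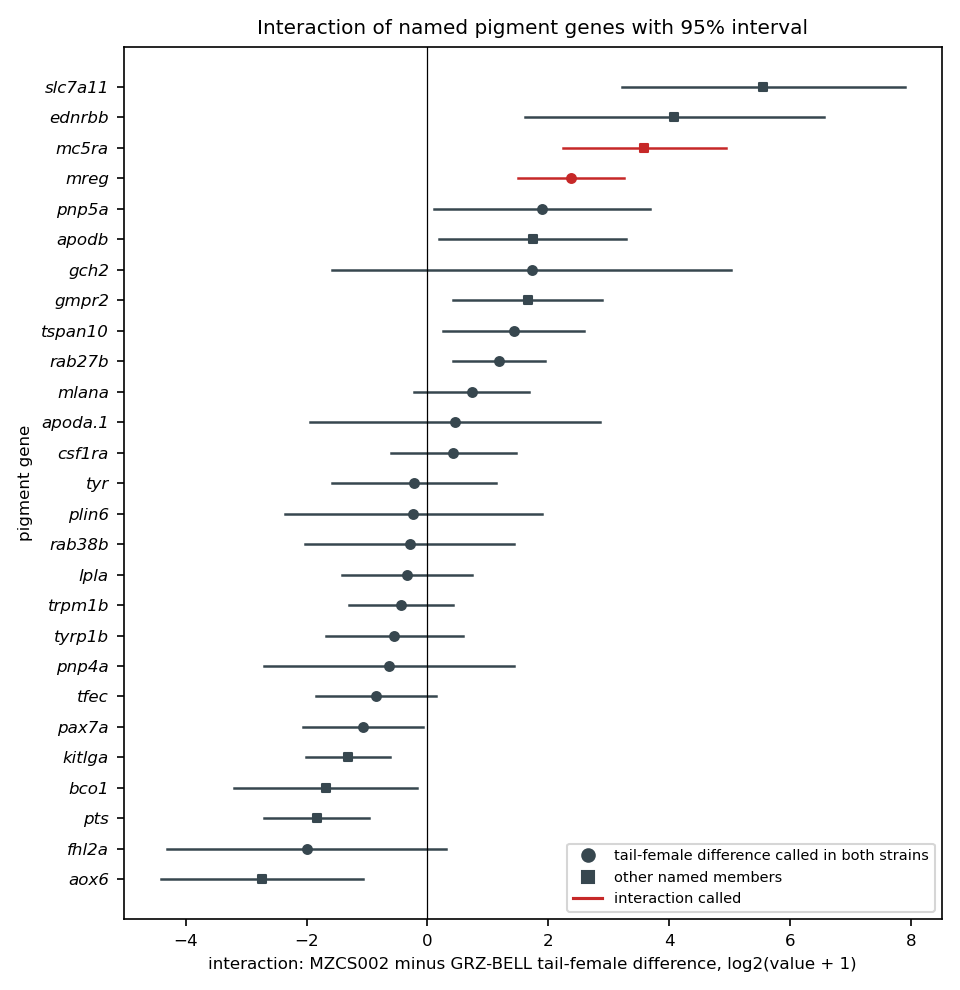
Interaction (log2, point) with its 95% interval (line) for the named pigment genes: circles are genes whose tail-female difference was called in both strains, squares other named members, red the called interactions. Most circles, among them tyr, tyrp1b and csf1ra, have intervals across 0; mreg and mc5ra are the called ones.

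Some pigment genes had large interactions that did not pass the adjustment. The cystine transporter gene slc7a11, known in mouse for its role in red-yellow melanin, was at 21.5, 4.02 and 13.6 in red tails, 0.899, 3.14 and 1.36 in MZCS002 females, 4.01, 6.08 and 6.87 in yellow tails and 71.7, 24.2 and 178 in GRZ-BELL females. MZCS002 females were lowest and GRZ-BELL females highest, with the tails between, so that here the females differed by more (-4.70) than the tails (0.85). Its interaction was 5.56 ± 1.08 (limma adjusted p = 0.066, and 0.033 without MZCS002 female 2).

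Of the 13 pteridine genes limma and edgeR called 0. Without MZCS002 female 2 limma called tdh, at -3.55 (0.883% of all entries were called there), and DESeq2 called 3 (4.12%). In limma 4 had an unadjusted p under 0.05 (14.5% of all entries). The gene pts, for an enzyme of tetrahydrobiopterin synthesis, was at 705.1, 1262 and 866 in red tails, 487, 497 and 352 in MZCS002 females, 1554, 2234 and 2845 in yellow tails and 317, 298 and 254 in GRZ-BELL females. All tail libraries lay above all female ones and the yellow tails above the red, with an interaction of -1.83 ± 0.40 (limma adjusted p = 0.10). The aldehyde oxidase gene aox6 was at 339 to 1681 in yellow tails and at 80.7 to 103 in red ones, with an interaction of -2.73 ± 0.77 (limma adjusted p = 0.16). Of the other carotenoid genes, bco1, for a carotenoid-splitting enzyme, was at -1.68 ± 0.70 (0.30) and apodb at 1.74 ± 0.71 (0.29). The guanine list's gmpr2, for a purine reductase, was at 1.66 ± 0.57 (0.22).

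The ligand gene kitlga, whose product guides melanophores, was at 187, 222 and 224 in red tails, 198, 211 and 198 in MZCS002 females, 852, 1253 and 863 in yellow tails and 349, 448 and 338 in GRZ-BELL females. Yellow tails were above all other libraries, red tails and their females overlapped, and the interaction was -1.32 ± 0.32 (limma adjusted p = 0.13). The endothelin receptor gene ednrbb was at 1.00, 0.868 and 4.12 in yellow tails and at 9.52 to 126 in the 9 other libraries. Yellow tails were thus the low group, and the interaction of 4.08 ± 1.14 was not called (0.16).

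Sex steroid genes gave no call among 12 tested members (4 at an unadjusted p under 0.05 in limma, 0 called by edgeR and 0 by DESeq2), with a median of 0.20. The members nearest to a call among those named by rule were the steroid reductase genes srd5a3 and srd5a2b, at 1.31 ± 0.45 and 1.93 ± 0.71 (limma adjusted p 0.22 and 0.24). The androgen receptor gene ar was at 0.50 and the oestrogen receptor gene esr2a at -0.20. Of 7 thyroid hormone genes 0 were called (2 at an unadjusted p under 0.05 in limma, 0 by edgeR and 0 by DESeq2). Their median interaction was 0.14, and -0.40 without MZCS002 female 2. Of all entries 14.5% had an unadjusted p under 0.05 in limma, and edgeR called 0.218% and DESeq2 4.12%.

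For the ribosome and for other cell types limma called no member with all libraries, and DESeq2 and the fit without MZCS002 female 2 called some. Of 66 cytosolic ribosomal protein genes 62 had a negative interaction, and of all 15170 entries 7463. Their median was -1.59, -1.04 under quantile normalization, -1.28 under equal totals and -1.25 without MZCS002 female 2. The median log2 deviation of the members was -1.43 in red 1 and 1.39 in MZCS002 female 2. The genes thus shifted together within libraries, and the 62 are not separate results. None of the 66 was called in limma, although 43 had an unadjusted p under 0.05 (14.5% of all entries). edgeR called 0, DESeq2 21 (4.12% of all entries) and limma without MZCS002 female 2 called 0. The medians of the tail-female difference were -1.59 for red tails against MZCS002 females and -0.01 for yellow tails against GRZ-BELL females. The sum of the 66 genes was 574053, 839058 and 1136206 in red tails, 1812704, 3436761 and 1414462 in MZCS002 females, 1181697, 913080.2 and 1985875 in yellow tails and 1632987, 1226831 and 1097394 in GRZ-BELL females. Red tails lay below MZCS002 females, of which the shallow library was highest, and the GRZ-BELL groups overlapped.

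Counts for the lists below stand beside these shares of all entries. In limma 14.5% had an unadjusted p under 0.05 and 0.178% were called, or 0.883% without MZCS002 female 2. The test of edgeR called 0.218% and DESeq2 4.12%. Erythroid genes had a median interaction of -1.28 (9 of 10 tested members negative, 3 at an unadjusted p under 0.05, 0 called by limma, edgeR or DESeq2), with tail-female medians of 0.19 in MZCS002 and 1.38 in GRZ-BELL. Muscle genes also stood at -1.28 over 6 members (2 at an unadjusted p under 0.05, 0 called by limma or edgeR, 1 by DESeq2 and 1, mylpfa, by limma without MZCS002 female 2). Their sums were low throughout, at 35.4 to 77.5 in red and 254 to 451 in yellow tails, and at 91.1 to 484 in MZCS002 and 378 to 495 in GRZ-BELL females. All 11 interferon response genes had a positive interaction, with a median of 0.41 and a highest of 2.06 for the peptide transporter gene tap1, and 0 were called (2 at an unadjusted p under 0.05, 0 by edgeR, 2 by DESeq2). Among all 15170 entries 7707 had a positive interaction. Without MZCS002 female 2 the interferon median was 0.31. The median log2 deviation of these genes was -1.02 in MZCS002 female 2 and 0.74 in red 1, and the sums of all groups overlapped. The interferon genes thus shifted together within libraries, and the 11 are not separate results. Fin ray genes had a median of 0.05 over 17 members (5 at an unadjusted p under 0.05, 0 called by limma or edgeR, 3 by DESeq2 and 1, and2, by limma without MZCS002 female 2), and the actinotrichia genes and1 and and2, which encode proteins of the fibrils at the fin edge, were at 3.03 and 4.64 (limma adjusted p 0.16 and 0.068). Lists of epidermis (15 genes, median 0.09), immune cells (18, 0.00), nerve and glia (6, -0.07), cell cycle (21, 0.06) and gonad (2, 0.51) held 0 calls in limma and edgeR, and DESeq2 called 1 epidermal gene. At an unadjusted p under 0.05 in limma they held 1, 1, 1, 1 and 0 members. These medians depended on the shallow library: without MZCS002 female 2 they were -0.16, -0.59, 0.22, 0.58 and 0.44, with 0 calls. Under equal totals the nerve and glia median was 0.24, and under quantile normalization the immune median was -0.02. The part of tissue makeup in the called genes was not tested.

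Leaving out the shallow library showed further genes with the same shapes. The melatonin-forming enzyme gene asmt was at 60.3, 51.4 and 72.4 in red tails and had no read in the 9 other libraries. It was at least 13-fold above MZCS002 females and at least 18.9-fold above yellow tails. Its limma adjusted p was 0.052 with all libraries and 0.020 without MZCS002 female 2. The gene agmo, for an enzyme that cleaves ether lipids with tetrahydrobiopterin as cofactor, was at 18189.7, 21737 and 11859.8 in red tails, 339, 59.7 and 369 in MZCS002 females, 1569, 3270.2 and 1091 in yellow tails and 509, 311 and 346 in GRZ-BELL females. Red tails were 67.5-fold above MZCS002 females and yellow tails 5.09-fold above theirs, with an interaction of 4.19 ± 0.85 (limma adjusted p = 0.080, and 0.018 without the library). The phosphatase gene dusp2, an immediate early gene, was at 341, 349 and 276 in red tails, 18, 15.7 and 4.76 in MZCS002 females, 93.3, 123 and 74.2 in yellow tails and 43.5, 27.5 and 36 in GRZ-BELL females. Red tails were highest and MZCS002 females lowest (3.30 ± 0.61, limma adjusted p = 0.054, and 0.021 without it).

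Lower in red tails were ppp1r1b, for a phosphatase inhibitor of dopamine signalling in mammalian brain, and ptgdsa, for a prostaglandin D synthase. They stood at -2.65 ± 0.48 and -2.86 ± 0.53, with limma adjusted p 0.053 and 0.055, and 0.018 and 0.019 without MZCS002 female 2. The chemokine gene ccl25b had all red libraries below the other 9 (-1.55 ± 0.43) and an adjusted p of 0.16, or 0.020 without it. For cbln18 the 2 remaining MZCS002 females were at 490 and 453 while the shallow one was at 0, and all other libraries at 2.61 or below. Its call (limma adjusted p = 0.0058, against 0.40) rests on leaving that library out. In limma, msrb3, insl5a, alad, amd1 and cmbl were also called without MZCS002 female 2 but not with all libraries. With all libraries msrb3, insl5a and alad stood at 2.32, 6.97 and 1.83 (limma adjusted p 0.33, 0.11 and 0.16). There amd1 and cmbl stood at -3.59 and -1.59 (limma adjusted p 0.082 and 0.23). Whether other settings called these genes is not given here.

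**Figure D4:**
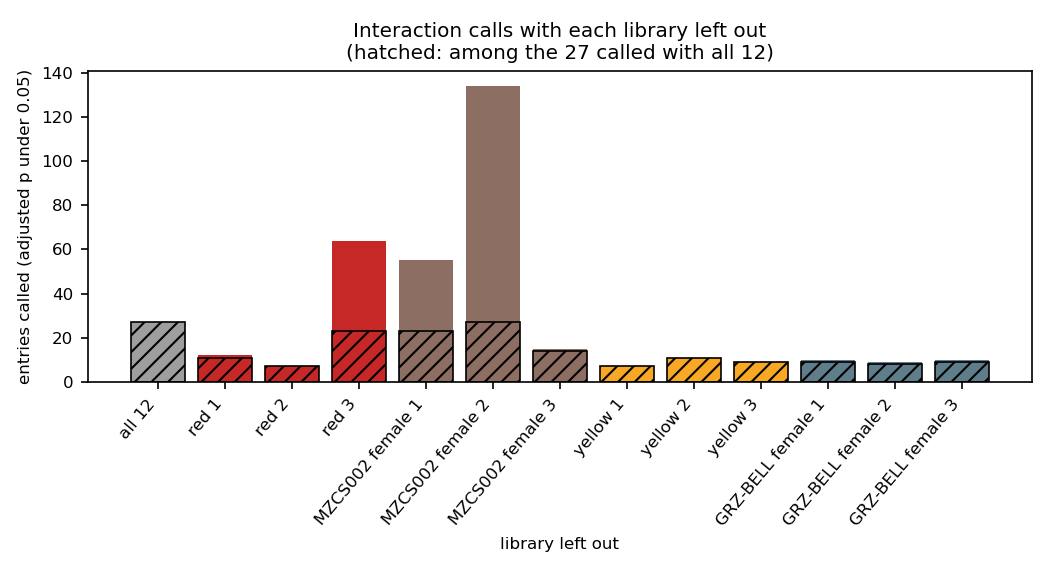
Number of entries called for the interaction (limma adjusted p under 0.05) with all 12 libraries and with each library left out; the hatched part is shared with the 27. Counts fall to between 7 and 15 without most libraries and rise to 134, 64 and 55 without MZCS002 female 2, red 3 and MZCS002 female 1.

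The number of calls changed with the library left out. The 27 calls became 134 without MZCS002 female 2, 64 without red 3 and 55 without MZCS002 female 1. Without MZCS002 female 3 there were 15. The absence of red 1 or red 2 left 12 or 7, that of a yellow library 7 to 11, and that of a GRZ-BELL female 9 or 10. Kept whichever library was left out were 5 calls: pax3a, slc30a8, slc39a6, esrrga and map7a. Under the other tools, filters, pseudocounts, scalings, weights and the replicate block, 5 calls were kept throughout: slc30a8, slc39a6, foxq1a, il34 and map7a. Each other call was lost under at least 1 of these settings.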

How the data were processed

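The authors deposited 1 table with a signal for each transcript entry. Its values are read counts divided by a factor for each library, made with DESeq2 according to the submitters' processing notes, which also list Trimmomatic, STAR and featureCounts. Tool versions, genome build and strand setting are not given in these sources, so reads of overlapping or near-identical genes could be shared, and no coordinates are printed. Per the labels' protocols, cDNA was primed with oligo-dT. In each of the 12 libraries 100% of the values came out as whole reads, within 0.01 of a read, and 3 reads were worth 2.04 to 9.43 normalized units. RefSeq accessions of assembly NfurGRZ-RIMD1 matched 14145 of 20788 entries (68.0%), and 10617 had a symbol. No sequence is printed.

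All 4 groups entered 1 fit in limma (version 3.58.1, R version 4.3.3, eBayes with intensity trend) on log2(value + 1), without covariates. P-values were adjusted by the Benjamini-Hochberg method over the 15170 entries with a mean of at least 10. The scale understates the change of low genes. Where a group held no read, the fold is a lower bound that sets 3 reads in every library of that group. Where it held 1 to 3, the ratio of means has a 95% counting interval from summed reads. Such bounds do not cover the spread between libraries. PCR copies were not removed by molecular identifiers, so that counting error may not be fully covered either. Alternatives were edgeR 4.0.16 (quasi-likelihood) and DESeq2 1.42.0 on recovered reads, other pseudocounts, filters and scalings, array weights, a replicate block, and each library left out. The labels do not say whether the replicate numbers pair the libraries. Of 18 same-number pairs 3 had a correlation of deviations over 0.1, which cannot decide this with 3 libraries per group. The fit was also run on simulated data with changes in red tails only, and nothing is read from that run here.

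Named are all called genes with a symbol and the pigment genes called in the same direction in both strains. Also named are the 2 further members with the smallest interaction p of each pigment, sex steroid, zinc, Csf1 and neural crest list. Added to these are the 6 in each direction with the smallest p among further genes that limma called without MZCS002 female 2. The last are 4 entries without a symbol. The members and lists were chosen with earlier results of these data known. The 23 lists were described by counts and medians, with no set test.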

Additional observations from a re-analysis of the deposited data

Results flagged for a closer look

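The following genes stood out because the tail-female difference in one strain differed from that in the other by a test of that difference itself, the limma interaction past an adjusted p of 0.05 (Benjamini-Hochberg). Values are log2 differences, MZCS002 minus GRZ-BELL. The interaction was 10.30 for pax3a, 6.84 for slc30a8, 6.55 for kcnk3a, 4.07 for il34, 3.56 for slc39a6 and 2.37 for mreg, all highest in red tails. It was 5.56 for foxq1a, 3.58 for mc5ra and 2.30 for acat2, in which yellow tails were the lowest group. Among genes highest in yellow tails it was -7.90 for esrrga, -7.75 for tac3a, -7.38 for lhx6b, -6.57 for onecut2, -4.20 for trpc4a, -3.98 for vtna, -3.97 for map7a and -3.85 for armh4. It was -2.64 for cav1, lowest in red tails, and -3.76 for si:ch211-251b21.1 and -1.55 for agpat5, in which no group stood alone. Entries without a symbol stood at 6.83 (XM_015943237), 2.95 (XM_015941869), -2.25 (XM_015974709) and -5.07 (XM_015975394). The fitted values of genes with almost no read in a group, such as pax3a and tac3a, depend on the pseudocount.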

How the results depend on the processing

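No gene called for the interaction changed direction under any alternative that was run. Of the named genes not called, tyr, plin6, apoda.1, lpla, rab38b and pnp4a changed sign under at least 1 alternative, uncalled there too. The 27 interaction calls (13 higher, 14 lower) became 625 (313, 312) in DESeq2, 3727 (1960, 1767) with array weights, 13 (7, 6) at a mean of at least 50, 6 (5, 1) at a pseudocount of 0.1 and 49 (23, 26) at a pseudocount of 5. The array weights were 0.56, 6.47 and 0.53 for red 1 to 3 and 4.61, 0.54 and 0.62 for yellow 1 to 3. They were 2.44, 0.11 and 0.67 for MZCS002 females 1 to 3, and 0.98, 1.90 and 1.03 for GRZ-BELL females 1 to 3. The calls with array weights thus rest mainly on red 2, yellow 1 and MZCS002 female 1 within their groups. Equal totals gave 28 higher and 7 lower. With a replicate block there were 14 (7, 7), of which 13 were among the 27. Of the 12 libraries, 0 correlated best with their own number in every other group. Leaving out 1 library gave 7 to 134 calls, 3 to 57 higher and 3 to 77 lower. Red tails against MZCS002 females gave 411 higher and 276 lower calls, 879 and 878 in DESeq2, 2652 and 2507 with array weights, 646 and 134 under equal totals, 107 and 5 with only these groups fitted, 237 and 110 with a replicate block, and 182 lower with no filter. Leaving out 1 library gave 126 to 686 and 45 to 480. Yellow tails against GRZ-BELL females gave 226 and 53, 483 and 228 in DESeq2, 1286 and 1122 with array weights, 371 and 175 with only these groups, and 137 to 394 and 13 to 138 with 1 left out. Red against yellow tails gave 1127 calls, 2350, 8233 and 1767 in these 3 settings, and 342 to 2616. The female groups gave 264, 808, 1398 and 74, 145 at a mean of at least 50, and 111 to 358. Judged by the farthest group mean, red tails below became 4 in place of 2, MZCS002 females below 0 in place of 1 and GRZ-BELL females below 1 in place of 3. The causes were not tested. For named genes, 196 values lost and 81 gained a call, and 20 moved by more than the replicate spread. With 3 libraries a group and 1 shallow one, genes not called can still differ.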

Other observations

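Heat shock and immediate early genes share a list and are described separately, a split made after their values were seen. The list of 22 tested genes held 0 calls in limma (9 at an unadjusted p under 0.05, against 14.5% of all entries; 1 called by edgeR, against 0.218%, and 6 by DESeq2, against 4.12%) and had a median interaction of 0.76. Without MZCS002 female 2 limma called 1, dusp2, and the median was 0.50. With all libraries 13 of the 22 had a positive and 9 a negative interaction. Only part of the members are named here. The chaperone genes hsp90aa1.2, hspa8 and dnajb1a were at -1.81, -1.35 and -1.38 (limma adjusted p 0.14, 0.22 and 0.18), while the intervals of hspd1 and hspb1 included 0. The immediate early genes fosb, fosl1a, jund and fosl2 were at 6.09, 5.81, 4.86 and 1.57 (limma adjusted p 0.14, 0.16, 0.33 and 0.34). The intervals of egr1, ier2a, dusp1 and junbb included 0. For each of these immediate early genes red 1 was the highest red library. For dusp2, also an immediate early gene, red 2 was the highest, with red 1 close to it. In red tails fosl1a was at 1653, 31.3 and 43.0, jund at 1037, 176 and 127, and egr1 at 1996, 136 and 131. The shallow MZCS002 female 2 was at 0 for jund. The summed level of the list, mostly chaperones, was 83180 to 101554 in red tails and at least 151464 in every other library, so that red tails did not overlap the rest.

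Among the 2193 entries with an unadjusted p under 0.05, the group mean farthest from the others was red tails above for 25% and red tails below for 21.6%, against 17.3% and 18.2% of all entries. Yellow tails above and below made up 10.2% and 10.6%, against 9.97% and 10.4%. The tails differed by more than the females for 67.5% of them, against 55.9% of all entries. These shares rest on the same values as the p-values and were not tested.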
